A study of Sus scrofa with 5 samples.

Results

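Untreated split-thickness skin grafts (STSG) of pigs were compared at day 90 and at day 7 after grafting, using single-cell RNA counts. The comparison took every cell with at least 500 detected genes from the 2 untreated libraries. These were 5706 cells at STSG day 90 and 8147 cells at STSG day 7, together 13853 of the 28654 such cells in the 5 libraries of the study. In all grafted groups a wound through the full thickness of the skin had been made on a pig and covered with an STSG. STSG day 90 and STSG day 7 received no drug. STSG+FAKI day 90 and STSG+FAKI day 7 received a hydrogel with a focal adhesion kinase inhibitor (FAKI), with the dressing changed every other day, and skin that was never wounded formed the fifth group. Cells were freed from the tissue by enzyme digestion and captured in droplets with 3' chemistry. Strain, sex, age and the number of animals behind a library were not given in the labels. Each group was 1 library, so no value could be set against a spread between animals, no test was possible and no p-value is given.

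A split-thickness graft carries the epidermis and the upper layer of the dermis. It survives by ingrowth of vessels from the wound bed, passes through an inflammatory phase with granulation tissue, and is then remodelled over months as fibroblasts lay down and crosslink collagen. Focal adhesion kinase, encoded by PTK2, relays signals from matrix-bound integrins and has a known role in the response of fibroblasts to mechanical tension.

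The library at STSG day 90 held 79530631 UMIs (unique molecular identifiers, 1 per captured RNA molecule), and that at STSG day 7 held 74694696. Cells with at least 500 genes had a median of 9877 UMIs and 2589 genes at day 90, and 6418 UMIs and 1938 genes at day 7. Mitochondrial transcripts took a median of 2.94% of a cell's UMIs at day 90 and 4.65% at day 7. The libraries shared 13 cell barcodes with each other, where 8.5 were expected from random draws of the possible barcodes. STSG day 90 also shared 133 barcodes with the unwounded skin library and 70 with STSG+FAKI day 90, where 1.7 and 3.7 were expected. For the barcodes shared with unwounded skin, the larger UMI count was a median of 75.9 times the smaller. The source of this excess, and its part in the levels of unwounded skin, was not tested. Cells with a barcode found in another library were 2.19% of cells and 6.01% of UMIs at day 90, against 0.589% of cells and 0.596% of UMIs at day 7. Without these cells 278 genes were at least 2-fold higher at day 90 and 335 lower, and the list medians that moved most, those of angiogenic endothelial and pericyte genes, are given with and without them.

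The first comparison asked which kinds of cells each graft yielded. Fibroblast-like cells took a larger share at day 90, and T or NK-like and keratinocyte-like cells a smaller one. After removal of predicted doublets and of cells above 25% mitochondrial UMIs, 5388 cells at day 90 and 7566 at day 7 were clustered with the other libraries, and clusters were named from marker genes. Fibroblast-like cells, which make the dermal matrix, were 38.9% of cells at day 90 (95% exact binomial interval 37.5 to 40.2) and 18.6% at day 7 (17.7 to 19.5). Endothelial-like cells were 24.1% and 21.5%, and pericyte or smooth muscle-like cells, which wrap small and larger vessels, were 18.5% and 22.4%, day 90 before day 7. T or NK-like cells were 3.95% at day 90 (3.45 to 4.51), against 12.7% at day 7 (11.97 to 13.49). Keratinocyte-like cells were 0.538% at day 90 (0.361 to 0.772), from 29 cells, against 6.21% at day 7 (5.68 to 6.78). Myeloid-like cells were 5.25% at day 90 and 6.50% at day 7, but 5.12% and 4.48% at the finer cluster resolution 2, so their direction depended on the clustering. Mast-like cells were 4.25% and 5.53%, dendritic-like cells 0.965% and 1.61%, and lymphatic endothelial-like cells 1.15% and 1.10%, day 90 before day 7. A cluster led by ACOD1, ARG1 and IL23A was 0.408% of cells at day 90 and 1.69% at day 7. The marker rule named it neutrophil, with 3 of 3 measured markers raised. None of these markers was among its top 10 genes, and the name is not used here. In unwounded skin 16.8% of cells were fibroblast-like, 42.4% endothelial-like, 1.49% T or NK-like and 8.82% keratinocyte-like. Enzymatic digestion and capture also set such shares, and their part was not tested.

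**Figure D1:**
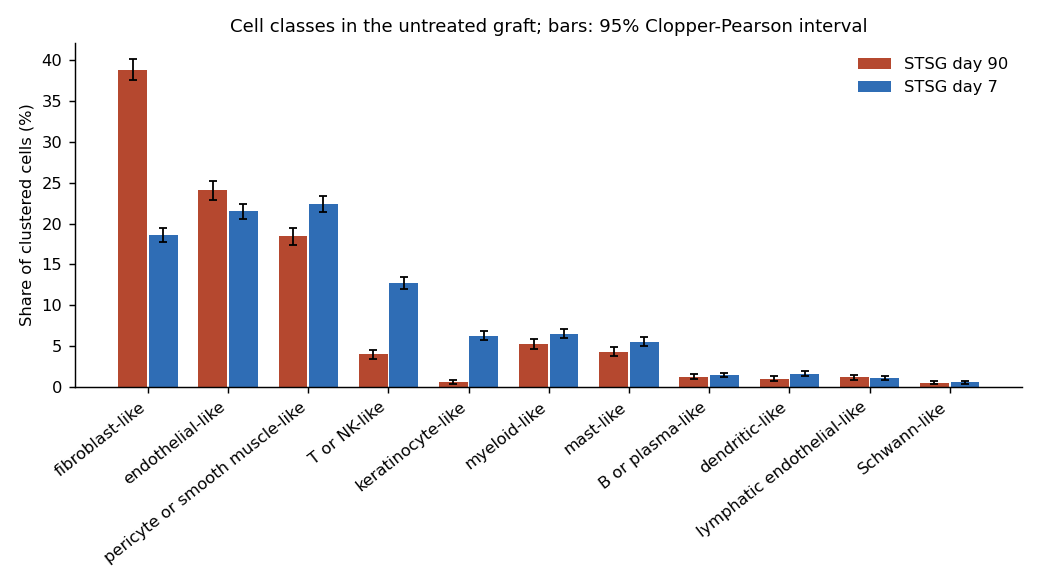
Share of clustered cells (%) in each cell class, STSG day 90 left and STSG day 7 right, with 95% exact binomial intervals that cover counting error only (1 library per day). Fibroblast-like cells stand at 38.9% at day 90 and 18.6% at day 7, and T or NK-like cells at 3.95% and 12.7%.

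Levels of single genes were then compared over the whole libraries. UMIs were summed over cells. CPM means counts for every 1000000 UMIs in the library, and each ratio is day 90 over day 7. Intervals at 95% cover counting error only. Of 6940 genes with a mean of at least 10 CPM over both libraries, 274 (3.95%) were at least 2-fold higher at day 90 and 307 (4.42%) at least 2-fold lower. This cut is on size alone. The median log2 ratio of the 6940 genes was -0.06. A gene was at least 10-fold higher in 11 cases and at least 10-fold lower in 31. In such sums, fewer cells of a type and less RNA per cell cannot be told apart, so levels inside a class are given as well. Every compared class was then given the same share of RNA in both libraries, with all other cells pooled. Of the 274 higher genes 122 were still past 2-fold, and of the 307 lower genes 131. Keratinocyte-like cells were in the pool, so their share was not equalised. The part of that share in these counts was not tested.

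At the upper end stood genes of fibroblasts and of tendon and cartilage matrix. TNMD, a membrane glycoprotein of tendon cells, was at 129 CPM at day 90, against 0.992 CPM at day 7, 129.8-fold higher (95% interval 103 to 166). THBS4, a matrix thrombospondin found in tendon, was at 934 CPM at day 90, against 55.0 CPM at day 7, 17.0-fold higher (95% interval 16.4 to 17.5). COL11A1, a chain of the minor fibril collagen XI of cartilage, was at 438 CPM at day 90, against 27.7 CPM at day 7, 15.8-fold higher (95% interval 15.1 to 16.5). MAP1LC3C, an autophagy protein, was 9.61-fold higher, and COL8A1, a short-chain collagen, 9.34-fold higher. The heparin-binding growth factor PTN was 8.80-fold higher, the proteoglycan OGN 7.86-fold higher and the collagenase MMP13 7.63-fold higher. QSOX1, which forms disulphide bonds in secreted proteins, was 7.60-fold higher, and the microfibril protein MFAP5 7.20-fold higher. SFRP2, a secreted Wnt modulator, was at 3758 CPM at day 90, against 539 CPM at day 7, 6.97-fold higher (95% interval 6.90 to 7.04), and at 11.6 CPM in unwounded skin. TNMD, THBS4 and COL11A1 stood at 1.98, 4.56 and 3.74 CPM there, below both graft days for THBS4 and COL11A1. The adventitial fibroblast marker PI16 was 6.96-fold higher, ITGBL1 5.73-fold higher, the carboxypeptidase CPZ 5.62-fold higher and HPS5 5.34-fold higher. Serum amyloid A genes neighbour HPS5 in the RefSeq table of Sscrofa11.1. Which annotation the counting used is not given in the sources used here, so the gene behind the HPS5 UMIs is uncertain.

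The lower end was mostly epidermal. CSTA, a cysteine protease inhibitor of the cornified envelope, was at 1.94 CPM at day 90, against 100.2 CPM at day 7, 51.6-fold lower (95% interval 44.0 to 60.9). S100A2, a calcium-binding protein of basal keratinocytes, was 46.9-fold lower (95% interval 43.6 to 50.5), at 9.35 CPM at day 90 and 439 CPM at day 7. LY6D was 38.6-fold lower, the skin chemokine CCL27 29.8-fold lower and the hemidesmosome collagen COL17A1 27.6-fold lower. The basal keratins KRT5 and KRT14 were 18.6-fold and 13.3-fold lower, and KRTDAP, PERP and KRT1 were 14.3-fold, 13.9-fold and 12.6-fold lower. The metallothionein MT1A was 15.1-fold lower and ZDHHC18 12.1-fold lower, and keratinocyte-like cells held 87.5% of MT1A and 92.5% of ZDHHC18 UMIs at day 7. The EGF receptor ligand AREG was 10.3-fold lower, with 4.81% of its UMIs at day 90 and 50.4% at day 7 in keratinocyte-like cells. The neuropeptide NPY, held mainly by mast-like cells, was 10.8-fold lower and the T cell chemokine CCL5 8.72-fold lower.

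**Figure D2:**
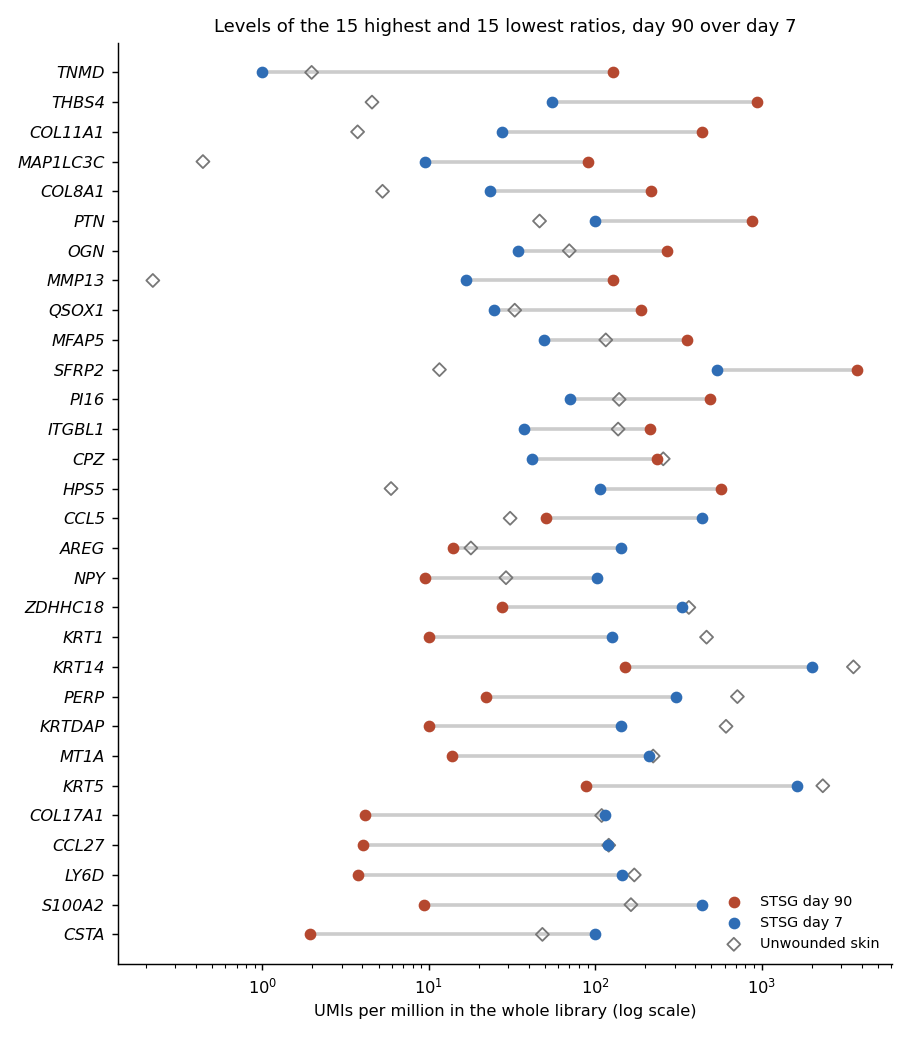
Level in CPM (log axis) of the 15 genes with the highest and the 15 with the lowest ratio of day 90 over day 7 among genes at a mean of at least 50 CPM, with STSG day 90 in red, STSG day 7 in blue and unwounded skin as hollow diamonds. TNMD stands at 129 CPM at day 90 and 0.992 CPM at day 7, and CSTA at 1.94 CPM at day 90 and 100.2 CPM at day 7.

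Genes of the extracellular matrix were taken by list. Of 15 collagen genes at 10 CPM or more, 9 were at least 2-fold higher at day 90 and 0 lower, with a median log2 ratio of 1.25, or 0.51 at equal class makeup. COL1A1, a chain of the main collagen of dermis and scar, was at 48002 CPM at day 90, against 9638 CPM at day 7, 4.98-fold higher (95% interval 4.97 to 4.99), and at 22503 CPM in unwounded skin. Its partner COL1A2 was 4.29-fold higher, the fibrillar collagen COL3A1 2.37-fold higher, COL5A2 2.54-fold higher and COL5A1 2.10-fold higher. The fibril-associated collagens COL14A1, COL12A1 and COL16A1 were 4.64-fold, 2.96-fold and 2.76-fold higher. The beaded filament collagens COL6A1 and COL6A3 stood at ratios of 1.40 and 1.04, and the basement membrane collagen COL4A2 at 0.799. COL5A3 was the lowest, at 70.8 CPM at day 90, against 106 CPM at day 7.

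Of 20 measured genes of cartilage and tendon matrix, 9 reached a mean of 10 CPM, and these 9 were at least 2-fold higher, with a median log2 ratio of 2.97, or 2.04 at equal class makeup. Summed over the 20, the list stood at 3151 CPM at day 90 and 463 CPM at day 7. ACAN, the large proteoglycan of cartilage, was at 74.4 CPM at day 90, against 0.625 CPM at day 7, 119-fold higher (95% interval 89.1 to 163). COMP, a matrix protein that binds collagen fibrils, was 7.32-fold higher (95% interval 6.64 to 8.08), at 45.4 CPM at day 90 and 6.21 CPM at day 7. FMOD and ASPN, small proteoglycans on collagen fibrils, were 5.14-fold and 3.38-fold higher. Genes of the same list under a mean of 10 CPM were named after their values were seen. The tendon transcription factors SCX and MKX stood at 2.02 against 0.0543 CPM and 16.8 against 1.68 CPM, day 90 before day 7, and CHAD, CILP2 and MATN4 at 12.3 against 0.897 CPM, 7.60 against 0.0815 CPM and 14.0 against 2.32 CPM. The cartilage genes COL2A1 and SOX9 stood at 0.947 against 0.0408 CPM and 4.41 against 4.73 CPM, and COL10A1, of hypertrophic cartilage, at 0 against 0.0136 CPM. SOX9 was thus level between the days, while the tendon genes and the cartilage genes COL2A1 and ACAN were higher at day 90.

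Of 21 genes of wound matrix and crosslinking, 7 were at least 2-fold higher and 0 lower (median log2 ratio 0.61). P4HA3, a collagen prolyl hydroxylase subunit, was 3.93-fold higher, CTHRC1 3.46-fold higher, THBS2 3.42-fold higher and the collagen crosslinking enzyme LOX 2.73-fold higher. SPARC, which binds collagen, was at 7240.0 CPM at day 90 and 3045 CPM at day 7, 2.38-fold higher. TNC, a matrix protein of healing tissue, was 2.06-fold higher at 343 against 166 CPM. Fibronectin, FN1, was at 1838 CPM at day 90 and 1219 CPM at day 7, a ratio of 1.51, and periostin, POSTN, at 2758 CPM at day 90 and 2091 CPM at day 7, a ratio of 1.32.

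Of 19 genes of elastic fibres and unwounded dermis, 8 were at least 2-fold higher and 0 lower (median 0.93, or 0.32 at equal class makeup). MGP, an inhibitor of calcification, was at 4324 CPM at day 90 and 1097 CPM at day 7, 3.94-fold higher, and the elastic microfibril proteins MFAP4 and FBLN1 were 3.29-fold and 3.24-fold higher. Decorin, DCN, stood at 2252 CPM at day 90 and 1123 CPM at day 7. Elastin, ELN, was under 10 CPM, at 3.94 CPM at day 90 and 1.25 CPM at day 7, 3.15-fold higher (95% interval 2.49 to 4.02). TNXB, matched through the gene name table, was at 60.3 CPM at day 90 and 20.8 CPM at day 7, 2.90-fold higher.

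**Figure D3:**
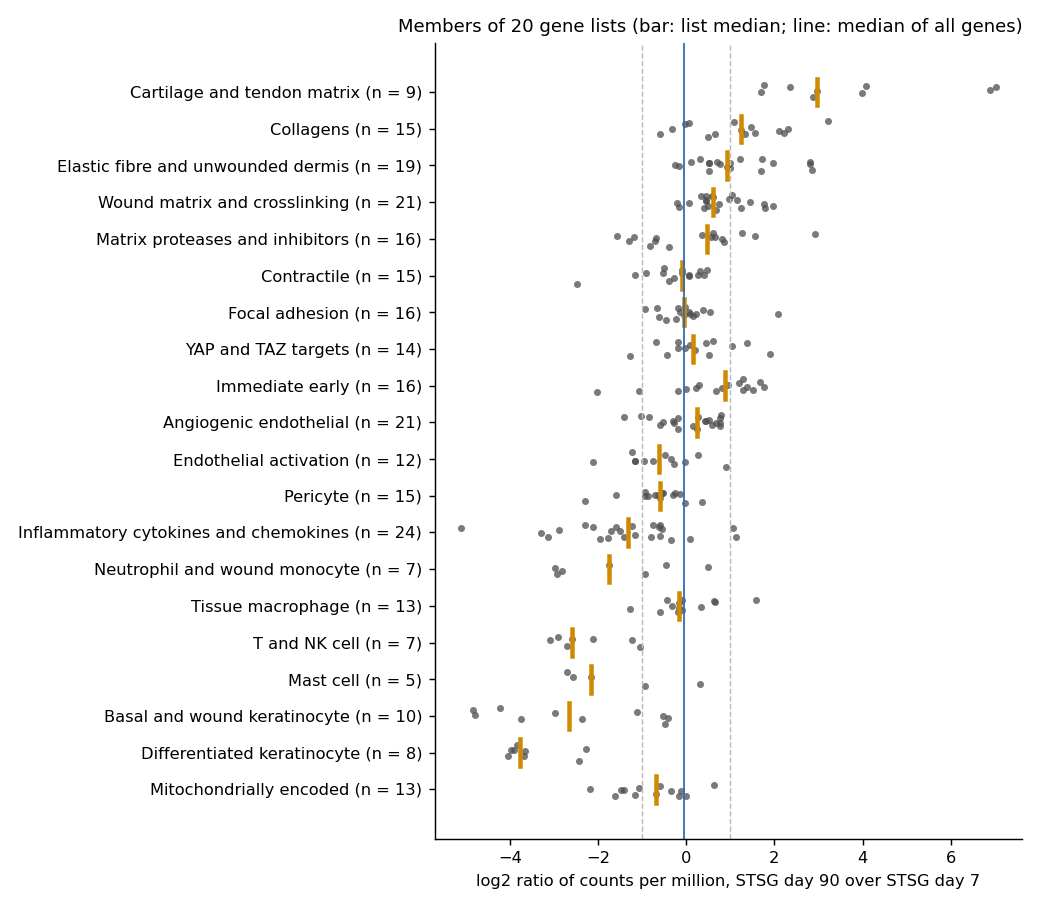
Log2 ratio of day 90 over day 7 in whole libraries for each member at 10 CPM or more of 20 gene lists. Points are genes, thick bars list medians, the thin line the median of all 6940 genes and the dashed lines 2-fold either way. Cartilage and tendon members lie past the upper dashed line, and T and NK cell and differentiated keratinocyte members past the lower one.

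The matrix genes were then followed inside fibroblast-like cells, 2093 at day 90 and 1408 at day 7. Here 3.12% of 1987 genes at a mean of 50 class CPM were at least 2-fold higher, 4.38% at least 2-fold lower, and the median log2 ratio was -0.19. Collagens had 5 members higher and 2 lower of 15 (median 0.42), and cartilage and tendon genes 7 higher and 0 lower of 8 (median 2.53). COL1A1 stood at 89977 against 33820 CPM, day 90 before day 7, 2.66-fold higher, and COL3A1 at 34375 against 25699 CPM, a ratio of 1.34. TNMD was at 249 against 2.81 CPM, 88.4-fold higher, ACAN 82.5-fold higher, THBS4 8.99-fold higher and COL11A1 8.07-fold higher. CCN3, a secreted matricellular regulator, was at 172 against 5.19 CPM, 33.1-fold higher. SFRP2, PI16, MGP and PTN were 3.50-fold, 3.52-fold, 3.56-fold and 4.86-fold higher. In contrast POSTN was 1.41-fold lower per fibroblast-like UMI, at 5136 against 7248 CPM, and COL6A3 and COL4A2 were 1.61-fold and 2.46-fold lower. Wound matrix genes had 1 higher and 0 lower of 20 (median 0.36). Among the genes at the lower end were SHAS2, the pig symbol of a hyaluronan synthase, at 16.9 against 119 CPM, the dipeptidase DPP4 at 16.2 against 108 CPM and CYP26B1 at 12.5 against 189 CPM.

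The fibroblast-like cells of the 2 days lay largely in different clusters. Cluster 6, led by THBS4, TNMD, COL11A1 and ACAN, held 49.9% of them at day 90 and 1.63% at day 7. Cluster 2, led by the BMP inhibitor GREM1, F13A1 and POSTN, held 4.25% at day 90 and 50.5% at day 7. Since these genes set the clusters, the cluster sizes are no separate result. Clusters 5, 13, 2 and 28 had at least 50 cells on both days and let the levels be compared inside a cluster. COL1A1 was higher at day 90 in each of the 4, at 77630 against 37435 CPM in cluster 5, 50956 against 33105 CPM in cluster 13, 68709 against 30223 CPM in cluster 2 and 84720 against 27481 CPM in cluster 28. THBS4 and COL11A1 stood at 363 against 406 CPM and 104 against 114 CPM in cluster 13, a cluster led by C4A, EFEMP1 and MYOC, and so were not higher there. In the cycling cluster 28 they stood at 1624 against 133 CPM and 958 against 40.2 CPM. POSTN was lower at day 90 in cluster 2, at 8645 against 12278 CPM.

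**Figure D4:**
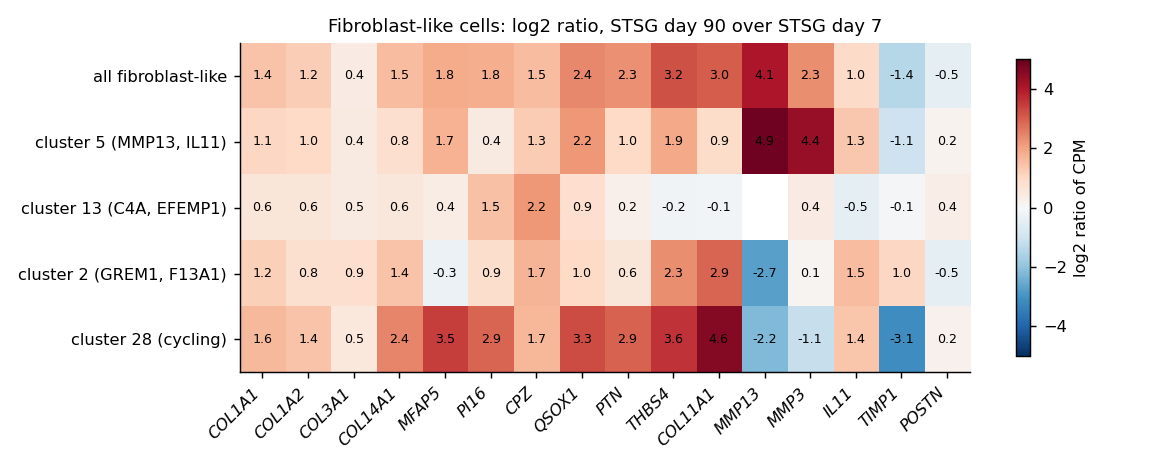
Log2 ratio of day 90 over day 7 for 16 genes (columns) in all fibroblast-like cells and in the fibroblast-like clusters 5, 13, 2 and 28 (rows). Red marks genes higher and blue genes lower at day 90. COL1A1 is higher at day 90 in each row, THBS4 and COL11A1 are below 0 in cluster 13, and the blank cell marks MMP13 in cluster 13, where both sums were at or under 3 counts.

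Proteases and their inhibitors split, with 3 of 16 genes higher and 3 lower (median 0.46, or -0.39 over members at 50 CPM or more). MMP13, the main interstitial collagenase of remodelling cartilage and bone, was at 127 CPM at day 90, against 16.7 CPM at day 7, 7.63-fold higher (95% interval 7.19 to 8.10). MMP2, a gelatinase, was 2.95-fold higher, and the protease inhibitor SERPINE2 2.39-fold higher. The macrophage elastase MMP12, under 10 CPM, stood at 0.227 against 9.28 CPM, and MMP9, a gelatinase of myeloid cells, was 2.96-fold lower. TIMP1, an inhibitor of matrix metalloproteinases, was at 1223 CPM at day 90, against 2758 CPM at day 7, 2.26-fold lower (95% interval 2.24 to 2.27), and urokinase, PLAU, 2.44-fold lower. The collagenase MMP1 carried no symbol in the files and is not analysed here.

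The cells that held these transcripts differed between the days. Fibroblast-like cells held 98.6% of MMP13 UMIs at day 90 and 23.3% at day 7, while keratinocyte-like cells held 0% of MMP13 UMIs at day 90 and 75.7% at day 7. MMP3, a stromelysin, stood at 181 CPM at day 90 and 100.1 CPM at day 7 over the whole libraries, a ratio of 1.81, and fibroblast-like cells held 99.1% of MMP3 UMIs at day 90 and 18.6% at day 7, against 0.475% of MMP3 UMIs at day 90 and 80.4% at day 7 in keratinocyte-like cells. Inside fibroblast-like cells MMP13 was at 245 against 14.7 CPM, 16.7-fold higher, and MMP3 at 349.9 against 69.7 CPM, 5.02-fold higher. Both were among the genes leading cluster 5, as was IL11, so their concentration in that cluster is no separate result. It had 373 cells at day 90 and 358 at day 7. MMP13 stood there at 1057 against 36.3 CPM and MMP3 at 1483 against 72.5 CPM. IL11, a cytokine of the IL-6 family known from fibroblast activation, stood in the same cluster at 426 against 168 CPM, and over the whole libraries at 60.8 CPM at day 90 and 28.01 CPM at day 7, 2.17-fold higher (95% interval 2.06 to 2.29). TIMP1 was at 1008 against 2673 CPM in fibroblast-like cells, 2.65-fold lower, and in the pericyte or smooth muscle-like class at 2428 against 5133 CPM. After thinning each cell to 2000 UMIs, MMP13 was detected in 5.09% of fibroblast-like cells at day 90 and 0.995% at day 7. Among keratinocyte-like cells it was detected in 0 of 23 at day 90, where 3 cells would be 13.04%, and in 9.11% of 428 at day 7. In T or NK-like cells at day 7 it was detected in 0 of 618, where 3 cells would be 0.485%.

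**Figure D5:**
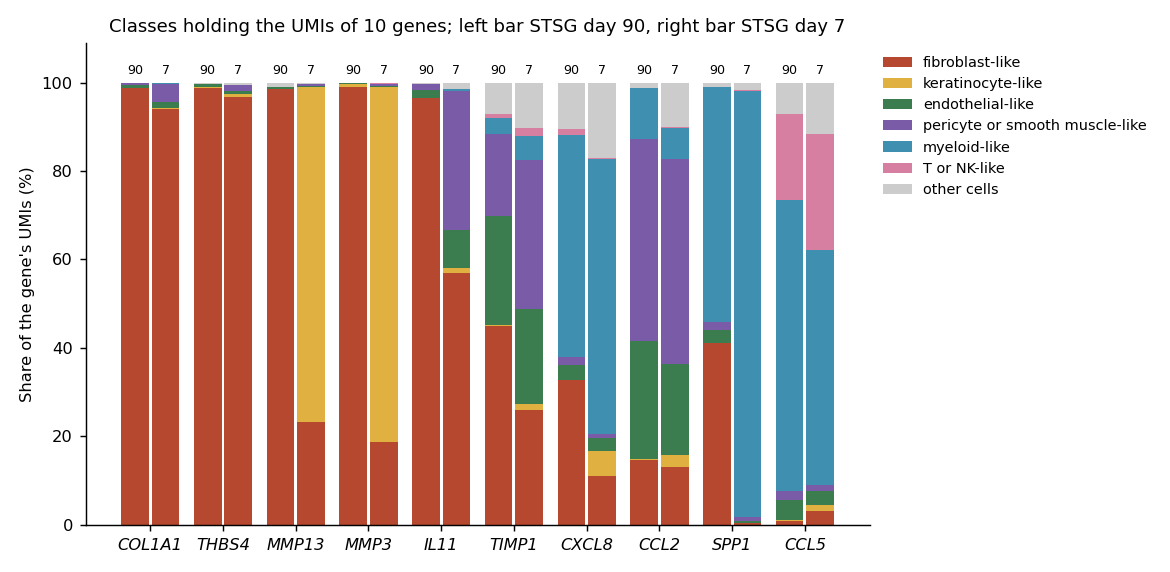
Share of each gene's UMIs (%) held by each cell class, left bar STSG day 90 and right bar STSG day 7, for 10 genes. The MMP13 and MMP3 bars are almost wholly fibroblast-like at day 90 and mostly keratinocyte-like at day 7, while COL1A1 is mainly fibroblast-like on both days.

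Genes of contraction, adhesion and mechanical signalling differed less than the matrix genes. Of 15 contractile genes 0 were higher and 2 lower (median log2 ratio -0.10, or 0.12 at equal class makeup), and of 16 focal adhesion genes 1 was higher and 0 lower (median -0.05), close to the -0.06 of all genes. PTK2 stood at 46.4 CPM at day 90 and 51.4 CPM at day 7, a ratio of 0.903 (0.863 to 0.945). ACTA2, the smooth muscle actin of myofibroblasts and mural cells, was at 989.6 CPM at day 90 and 1288 CPM at day 7, 1.30-fold lower, while inside fibroblast-like cells it stood at 554 against 349.9 CPM and inside pericyte or smooth muscle-like cells at 6338 against 5641 CPM. Fibroblast-like cells held 30.5% of ACTA2 UMIs at day 90 and 7.46% at day 7, and pericyte or smooth muscle-like cells 59.4% and 80.8%. TAGLN stood at 1699 CPM at day 90 and 1619 CPM at day 7. The smooth muscle genes MYH11 and ACTG2 were 2.22-fold and 5.60-fold lower, while inside pericyte or smooth muscle-like cells MYH11 was level at 800.5 against 879.9 CPM. ITGA11, a collagen-binding integrin of fibroblasts, was 4.20-fold higher. Among 14 targets of YAP and TAZ, transcriptional coactivators that respond to tension, 3 were higher and 1 lower (median 0.15, or -0.03 at equal class makeup), with CCN2 at 275 CPM at day 90 and 106 CPM at day 7, 2.59-fold higher (95% interval 2.52 to 2.66), and CCN1 and CCDC80 2.04-fold and 3.74-fold higher. In the pericyte or smooth muscle-like class CCN2 was 2.94-fold higher.

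Growth factor pathways were mixed. TGFB1 stood at 113 CPM at day 90 and 158 CPM at day 7, and 2 of 18 TGF-beta and activin genes were higher and 2 lower (median 0.07, or -0.09 at equal class makeup). TGFBI and LTBP3 were 3.14-fold and 2.76-fold higher, while the BMP inhibitor GREM1 and the activin inhibitor FST were 3.06-fold and 6.52-fold lower. Inside fibroblast-like cells GREM1 was at 25.8 against 159.6 CPM, 6.18-fold lower. Of 7 Wnt modulators 2 were higher and 1 lower (median 0.63, or -0.17 at equal class makeup). SFRP4 was at 341 CPM at day 90 and 83.5 CPM at day 7, 4.09-fold higher, and DKK3 was 3.52-fold higher. Among 5 genes of the insulin-like growth factor system IGFBP2 was 3.08-fold higher, the 1 member past 2-fold.

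Inflammatory genes were lower at day 90 across several cell types. Of 24 cytokines and chemokines 14 were at least 2-fold lower and 2 higher, with a median log2 ratio of -1.32, or -0.82 at equal class makeup. CXCL8, which draws neutrophils, was at 63.0 CPM at day 90, against 468 CPM at day 7, 7.43-fold lower (95% interval 7.22 to 7.66). The monocyte chemokine CCL2 was at 1136 CPM at day 90, against 2557 CPM at day 7, 2.25-fold lower, and IL6 at 389.9 CPM at day 90, against 912 CPM at day 7, 2.34-fold lower. CCL5, CSF2, CSF3 and CCL4 were 8.72-fold, 9.75-fold, 4.33-fold and 3.88-fold lower. The interferon-induced chemokines CXCL10 and CXCL11 were 4.89-fold and 34.3-fold lower, CXCL11 at 0.593 against 20.3 CPM. TNF, IL1A and LIF were 3.40-fold, 3.28-fold and 3.03-fold lower. The 2 higher members were IL11 and CXCL12, a chemokine of resting stroma, at 217 CPM at day 90 and 103 CPM at day 7, 2.10-fold higher, and at 446 CPM in unwounded skin. CXCL14, another chemokine of resting skin, was 1.27-fold lower, at 643 CPM at day 90 and 816 CPM at day 7. The symbol IL1B was not in the files, and that gene is not analysed here. Of 16 interferon response genes 0 were higher and 1 lower (median -0.40), and of 7 antigen presentation genes 0 were past 2-fold either way (median 0.14).

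Inside classes, the chemokine list was lower in fibroblast-like cells, where 8 of 11 members were at least 2-fold lower and 0 higher (median -1.15). There CCL2 stood at 304 against 1216 CPM, CXCL2 at 399 against 1561 CPM and the alarmin IL33 at 10.6 against 89.7 CPM, which is 8.48-fold lower. In endothelial-like cells 5 of 13 were lower and 1 higher (median -0.94), against 3.31% lower and 1.52% higher of 2507 genes. CSF3 was at 66.7 against 364 CPM there, CXCL10 at 91.9 against 514 CPM and CXCL9 at 72.4 against 326 CPM, while CXCL12 was 3.16-fold higher at 528 against 167 CPM. At day 90 the largest endothelial-like clusters were cluster 7 with 34.0% and cluster 17 with 21.1% of the class, and at day 7 cluster 0 held 53.0% (8.56% at day 90). Cluster 0 was led by CXCL11 and CSF3. Pericyte or smooth muscle-like cells had 0 of 9 lower and 1 higher (median 0.01), against 1.5% lower and 2.04% higher of 2400 genes. The neutrophil chemokine CXCL2, short of 2-fold, stood there at 14516 against 8697 CPM. IL11 lay under a mean of 50 class CPM in that class and so was not among the 9 members counted. It was 5.27-fold lower there, at 9.41 against 49.5 CPM, the reverse of its direction in fibroblast-like cells (116 against 60.3 CPM).

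Myeloid-like cells formed 1 cluster at the main resolution of 1, with 283 cells at day 90 and 492 at day 7. Among 1954 genes at a mean of 50 class CPM, 5.37% were at least 2-fold higher and 3.28% lower. Tissue macrophage genes were higher, 7 of 14 at least 2-fold and 0 lower, with a median log2 ratio of 1.03. The complement genes C1QA, C1QB and C1QC stood at 2452 against 748 CPM, 5827 against 2215 CPM and 3037 against 933 CPM, day 90 before day 7. The folate receptor FOLR2, a marker of resident macrophages, was 6.01-fold higher, the transcription factor MAF 2.91-fold higher, and the scavenger receptor CD163 stood at 657 against 389 CPM. Antigen presentation genes had 5 of 6 higher and 0 lower (median 1.12), with SLA-DQB1, a pig class II gene, at 7175 against 3293 CPM and B2M at 9308 against 4261 CPM. Classes of highly similar SLA genes may share reads, so these levels are uncertain.

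Lipid-handling macrophage genes had 0 higher and 5 lower of 14 (median -0.04). FABP4, a fatty acid carrier, was at 10.9 against 1881 CPM, 172-fold lower, the lipase LPL 11.5-fold lower and FABP5 3.18-fold lower. FABP4 was also lower in T or NK-like cells, at 18.0 against 85.3 CPM, and in fibroblast-like cells, at 6.05 against 104 CPM, and the part of free RNA in its level was not tested. SPP1, which encodes osteopontin, was at 803 against 5204 CPM in these cells and at 59.8 CPM at day 90 and 454 CPM at day 7 over the whole libraries, 7.60-fold lower (95% interval 7.37 to 7.83). Myeloid-like cells held 53.2% of SPP1 UMIs at day 90 and 96.3% at day 7, and fibroblast-like cells held 41.2% at day 90, with SPP1 at 46.4 against 6.18 CPM inside them. Inflammatory genes had 6 of 13 lower and 1 higher, with CXCL8 at 780.4 against 3409.6 CPM, CCL4 at 4000.1 against 10199 CPM and TNF at 43.7 against 181 CPM. After thinning, CXCL8 was detected in 30.6% of myeloid-like cells at day 90 and 80.4% at day 7, and in 8.13% and 4.05% of T or NK-like cells, a class that makes little of it. Over the whole libraries neutrophil and monocyte genes had 4 of 7 lower and 0 higher (median -1.76, or -0.58 at equal class makeup and -1.03 with per-cell means), with S100A8 and S100A12, calcium-binding proteins of neutrophils, 7.90-fold and 7.04-fold lower. ARG1 was 1.92-fold lower, and C1QA and CD163 were at 102 against 65.4 CPM and 28.4 against 38.1 CPM.

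Of 23 measured T and NK cell genes 7 reached 10 CPM, and these 7 were at least 2-fold lower over the whole libraries. Their median was -2.60, or -0.50 at equal class makeup, and with per-cell means the list median was -1.73. Summed over the 23, the list stood at 100.5 CPM at day 90 and 329 CPM at day 7. The T cell receptor subunits CD3D and CD3E were 6.06-fold and 4.32-fold lower, CD2 6.50-fold lower, and IL7R and the cytotoxic protease GZMA were 7.50-fold and 8.57-fold lower. Inside the 213 T or NK-like cells at day 90 and the 962 at day 7, 2 of 17 members were higher and 2 lower (median -0.38), against 4.18% higher and 3.69% lower of 2035 genes, and CD3E was level at 1238 against 1132 CPM. GZMA was 2.45-fold lower and CCL5 2.62-fold lower in these cells. The cytokines IL17A and IL17F, of type 17 lymphocytes, were higher inside these cells. IL17A had 123 UMIs at day 90 and 79 at day 7, or 201 against 29.5 CPM, 6.80-fold higher (95% interval 5.08 to 9.13). IL17F had 146 and 73 UMIs, or 238 against 27.3 CPM, 8.73-fold higher (6.55 to 11.7). Cluster 16, a T or NK-like cluster led by RHEX, BLK, IL17A and IL17F, held 78 cells at day 90 and 249 at day 7. There IL17A and IL17F stood at 508 against 11.6 CPM and 512 against 85.5 CPM. Since both genes lead the cluster, these levels are no separate result. In the whole inhibitor-treated libraries IL17A was at 0 CPM at day 90 and 19.2 CPM at day 7. Those libraries held 76 T or NK-like cells at day 90 and 1896 at day 7. Whole-library levels are a different measure from the class levels above, so the untreated and treated pairs are not compared for IL17A.

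Of 8 measured mast cell genes 5 reached 10 CPM, of which 3 were at least 2-fold lower and 0 higher (median -2.15, or 0.02 at equal class makeup and -0.41 with per-cell means), among them MS4A2 and FCER1A, subunits of the IgE receptor, and the histamine enzyme HDC, 5.89-fold, 4.45-fold and 6.54-fold lower. Inside mast-like cells HDC stood at 1120.4 against 1559 CPM and MS4A2 at 4909 against 6702 CPM, while CSF2 was at 4.34 against 341 CPM and CCL1 at 276 against 1844 CPM. These cells had a median of 1632 UMIs at day 90 and 4300.5 at day 7, and 10.9% of 2175 genes were at least 2-fold higher and 5.29% lower in them. JCHAIN, of antibody-secreting cells, was 4.58-fold lower. The B or plasma-like class joined clusters of different kinds in unlike proportions on the 2 days, and its levels are not read here. In it 0.636% of 786 genes were at least 2-fold higher and 78.8% lower. Inside its cluster 30 alone, led by JCHAIN and MZB1, 1.81% of 551 genes were higher and 59.5% lower. The cause of this skew was not tested.

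Most keratinocyte genes were lower at day 90. Of 13 measured basal and wound keratinocyte genes 10 reached 10 CPM, and 7 of these were at least 2-fold lower and 0 higher. Their median was -2.67, or -0.95 at equal class makeup, and with per-cell means the list median was -1.30. Of 20 measured differentiation genes 8 reached 10 CPM, and these 8 were lower (median -3.76, or -1.12 at equal class makeup). Keratinocyte-like cells were in the pool of other cells there, so equal class makeup did not equalise their share. Summed over all measured members, the basal list stood at 426 CPM at day 90 and 4176 CPM at day 7, and the differentiation list at 97.3 CPM at day 90 and 720.4 CPM at day 7. KRT14 was at 151 CPM at day 90, against 2017 CPM at day 7, 13.3-fold lower (95% interval 13.1 to 13.6), and at 3566 CPM in unwounded skin. KRT10, of the suprabasal layers, was at 52.0 CPM at day 90 and 252 CPM at day 7, 4.84-fold lower. Keratinocyte-like cells held 90.7% of KRT14 UMIs at day 90 and 97.1% at day 7. Keratin RNA outside these cells also differed. After thinning, KRT14 was detected in 0 of 123 T or NK-like cells at day 90, where 3 cells would be 2.44%, and in 19.3% of 618 at day 7. Such cells should lack it, and their median depths were 2932 and 2984 UMIs. In endothelial-like cells it was detected in 0.0808% at day 90 and 10.1% at day 7. With 0 UMIs in T or NK-like cells at day 90 and 479 at day 7, KRT14 was at least 36.6-fold lower there, against a floor of 3 counts. With 29 keratinocyte-like cells at day 90, levels inside this class were not compared.

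COL1A1 gave the opposite picture among cells that should lack it. After thinning it was detected in 77.7% of cells at day 90 and 54.1% at day 7, in 100% and 99.7% of fibroblast-like cells, in 56.1% and 13.9% of myeloid-like cells and in 53.7% and 25.6% of T or NK-like cells, day 90 before day 7. The COL1A1 level of classes other than fibroblast-like cells is therefore not read here. TNMD, in contrast, was detected in 19.1% of fibroblast-like cells at day 90 and 0.536% at day 7. It was detected in 0 of 123 and 0 of 618 T or NK-like cells, where 3 cells would be 2.44% and 0.485%. Median depths of the thinned fibroblast-like cells were 17760 UMIs at day 90 and 12340 at day 7.

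Vessel genes differed less. Of 21 angiogenic endothelial genes 0 were higher and 2 lower (median 0.25, or 0.01 without cells whose barcode occurs in another library). PLVAP, of the diaphragm of fenestrated vessels, and VWF, a clotting protein, stood at 587 against 339.8 CPM and 210.1 against 124 CPM, day 90 before day 7. The log2 ratio of VWF was 0.76, or 0.59 without the shared barcodes, and that of PECAM1 0.43, or 0.28 without them. VEGFA, the vessel growth factor, and ANGPT2, which destabilises vessels, were 2.66-fold and 2.04-fold lower. ACKR1, a chemokine receptor of venules, was at 90.6 CPM at day 90 and 48.7 CPM at day 7. Of 12 endothelial activation genes 4 were lower and 0 higher (median -0.62), and inside endothelial-like cells 1 of 11 was lower (median -0.56), while 0 of 17 angiogenic genes were past 2-fold there (median 0.32). The carbonic anhydrase CA4 was 3.53-fold lower and RGCC 2.21-fold lower inside these cells, and COL15A1 stood at 649.9 against 331 CPM. Endothelial-like cells held 42.5% of CA4 UMIs at day 90 and 26.55% at day 7, and pericyte or smooth muscle-like cells 53.5% and 51.6%. Keratinocyte-like cells held 2.09% and 20.1% of them. The part of free RNA in the CA4 level of endothelial-like cells was not tested.

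Of 15 pericyte genes 2 were lower and 0 higher (median -0.59, or -0.69 without shared barcodes), with RGS5, a regulator of G-protein signalling typical of pericytes, at 639 CPM at day 90 and 1041 CPM at day 7 (log2 ratio -0.70, or -0.87 without shared barcodes). Inside pericyte or smooth muscle-like cells, where 994 cells at day 90 were mostly of clusters 1 and 9 and 1693 cells at day 7 mostly of clusters 3 and 1, the list had a median of -0.01 and RGS5 stood at 3442 against 3832 CPM. There the retinoic acid hydroxylase CYP26B1 was 3.80-fold lower, POSTN 3.32-fold lower and ACTG2 2.77-fold lower, while NAALAD2 was 6.35-fold higher. In the 62 lymphatic endothelial-like cells at day 90 and the 83 at day 7, ECRG4 was at 1029.5 against 33.4 CPM, where 2.75% of 2509 genes were at least 2-fold higher and 2.71% lower. HBB, the haemoglobin of red cells, was at 101 CPM at day 90 and 184 CPM at day 7, a log2 ratio of -0.87, or -2.10 over all deposited barcodes.

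Immediate early genes, which respond within minutes to stimuli and to enzymatic digestion, were higher at day 90, 7 of 16 at least 2-fold and 2 lower (median 0.87). FOS was at 2200.0 CPM at day 90, against 653 CPM at day 7, 3.37-fold higher (95% interval 3.34 to 3.41), and at 3788 CPM in unwounded skin. FOSB, DUSP1 and EGR1 were 3.17-fold, 2.88-fold and 2.60-fold higher, and the endothelial flow-responsive factor KLF2 2.45-fold higher, while FOSL1 and FOSL2 were 4.06-fold and 2.12-fold lower. The medians were above 0 in 8 of the 9 classes compared, from 0.90 in fibroblast-like to 1.94 in dendritic-like cells, where 10 of 12 were higher and 0 lower, against 5.45% higher and 4.67% lower of 1799 genes. In the mixed B or plasma-like class the median was -0.47 on 3 genes, beside -1.60 over all its genes. The part of digestion in this was not tested.

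Mitochondrially encoded genes had 6 of 13 lower and 0 higher (median -0.69), with COX1 at 3829.7 CPM at day 90 and 8571 CPM at day 7, beside the lower mitochondrial share per cell. Nuclear-encoded respiratory chain genes had 2 of 30 lower (median -0.41). Of 20 glycolysis and hypoxia genes 4 were lower and 0 higher (median -0.38), with HK2, a hexokinase, and PFKFB3, a glycolytic activator, 3.99-fold and 2.26-fold lower, and lactate dehydrogenase LDHA 1.79-fold lower. Of 15 cell cycle genes and 10 heat shock genes 0 were past 2-fold (medians -0.36 and -0.35). TOP2A, of dividing cells, was at 26.6 CPM at day 90 and 39.5 CPM at day 7. Secretory pathway genes had 1 of 23 higher (median -0.12), with the chaperone HSPA5 at 392 CPM at day 90 and 453 CPM at day 7, and in fibroblast-like cells 0 of 20 were past 2-fold (median -0.31). Over the whole libraries 0 of 35 ribosomal protein genes were higher and 1 lower (median -0.21). Lipid-handling macrophage genes had 0 higher and 2 lower of 13 (median -0.55). Tissue macrophage genes had 1 higher and 1 lower of 13 (median -0.16, or 0.79 at equal class makeup). Arterial, capillary and lymphatic genes had 1 higher and 2 lower of 15 (median 0.08), and B and plasma cell genes 0 higher and 1 lower of 5 (median -0.43). Erythroid and platelet genes had 0 of 2 past 2-fold (median -0.28, or -0.89 over all deposited barcodes). No gene of the Schwann cell, melanocyte and gland list reached 10 CPM, and the list summed to 58.0 CPM at day 90 and 44.5 CPM at day 7.

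The same days were available for the inhibitor-treated grafts, a pair of libraries that shares none with the untreated pair. There 11.0% of 6969 genes were at least 2-fold higher at day 90 and 5.61% lower. Of the 274 genes higher in the untreated graft, 159 (58.0%) were also at least 2-fold higher in the treated pair, and of the 307 lower genes 177 (57.7%) were also at least 2-fold lower. The opposite direction past 2-fold was taken by 8 of the 274 and 5 of the 307. COL1A1 in the treated pair stood at 33903 CPM at day 90 and 8581 CPM at day 7, TNMD at 20.9 CPM at day 90 and 4.52 CPM at day 7, THBS4 at 208 CPM at day 90 and 45.2 CPM at day 7 and SFRP2 at 878 CPM at day 90 and 388 CPM at day 7. MMP13 went the other way, at 0.0797 CPM at day 90 and 24.9 CPM at day 7, as did IL11 at 2.31 CPM at day 90 and 108 CPM at day 7 and COMP at 2.83 CPM at day 90 and 7.50 CPM at day 7. The differentiation keratins KRT1 and KRT10 were higher at day 90 in the treated pair, at 115 CPM at day 90 and 49.6 CPM at day 7 and at 356 CPM at day 90 and 121 CPM at day 7. Cytokines and chemokines had 16 of their tested members lower and 2 higher there, with CXCL8 at 20.6 CPM at day 90 and 497 CPM at day 7. These values are set side by side, and the difference between the pairs was not tested.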

How the data were processed

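Single-cell RNA libraries were made from pig skin with 10x Chromium 3' v3 chemistry, per the labels' protocols, and processed with Cell Ranger and Seurat 3.1.1, per the submitters' processing notes. The deposited values are whole-number UMI counts per gene and barcode, with no normalisation by the authors apparent in them. Of 20286 gene IDs, 14674 carried a symbol, and only these are reported. The build used for counting is not given in the sources used here.

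Cells with at least 500 genes were kept and UMIs were summed per library. Sums were scaled to CPM with all UMIs in the total, including the 15.3% at day 90 and 16.9% at day 7 that fell on IDs without a symbol. Genes at a mean of 10 CPM or more were compared. Ratios carry exact conditional binomial 95% intervals and shares exact Clopper-Pearson intervals. Both cover counting error only, and with 1 library per group no test was run. A ratio against 0 UMIs used a floor of 3 counts per class sum. Where a gene was detected in 0 cells, the share that 3 cells would make is given, which is not an interval limit.

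The 5 libraries were clustered together, without integration, on 2000 variable genes, 30 components and 20 neighbours at Leiden resolution 1 (Python 3.11.15, NumPy 2.4.6, SciPy 1.17.1, Scanpy 1.11.5, leidenalg 0.10.2). Cells above 25% mitochondrial UMIs and the cells with the top doublet scores, at 0.8% per 1000 cells (255 at day 90, 524 at day 7), were left out of clustering only. Clusters were called X-like from marker genes. Classes were compared where both libraries held at least 50 cells, at a mean of 50 class CPM. For equal class makeup, class CPM were averaged with the same class weights in both libraries, with all cells outside the 9 compared classes as 1 pool. List medians at equal class makeup keep the same members in the Results, but not in the section on how the results depend on the processing. In that section, and with per-cell means, all deposited barcodes or shared barcodes left out, list medians take the members past the expression minimum under that setting. For detection, cells were thinned to 2000 UMIs, which left out 453 cells at day 90 and 1105 at day 7.

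Named genes were the 15 highest and 15 lowest ratios at a mean of 50 CPM, the 4 largest in each list, the 6 at each end of each class, and a fixed set. Other genes named beside them were chosen after their values were seen. The members, the 36 lists (609 of 713 genes measured) and the rules were chosen with earlier results of these data known. Ratios and intervals were tested on simulated data. Alternatives covered cell filters, doublets, scaling, class makeup, expression minimum, fold, thinning and cluster resolution.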

Additional observations from a re-analysis of the deposited data

Results flagged for a closer look

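In 6 genes named in the report the ratio of day 90 over day 7 passed 2-fold in opposite directions in the untreated and in the inhibitor-treated pair. The log2 ratio of the collagenase MMP13 was 2.93 in the untreated pair and -8.29 in the treated pair, that of IL11 1.12 and -5.55, that of HPS5 2.42 and -6.79, and that of COMP 2.87 and -1.41. The differentiation keratins ran the other way, with KRT1 at -3.66 in the untreated and 1.22 in the treated pair and KRT10 at -2.28 and 1.56. MMP13, IL11 and HPS5 were leading genes of the same fibroblast-like cluster. With 1 library per group the difference was not tested.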

How the results depend on the processing

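The counts of 274 genes higher and 307 lower stayed within 1.5 times under all barcodes (275 and 310), a minimum of 1000 genes (273 and 301), a mitochondrial limit (272 and 307), doublet removal (271 and 313), totals without mitochondrial genes (267 and 325), per-cell means (280 and 244), a median set to 0 (304 and 280) and without shared barcodes (278 and 335, an alternative chosen after seeing the data). They moved to 177 and 144 at equal class makeup, 1212 and 1316 with no low-value filter, 107 and 115 at 50 CPM, and 708 and 896 at 1.5-fold. The fibroblast-like share ratio of day 90 over day 7 moved from 2.09 to 2.24 and the endothelial-like ratio from 1.12 to 1.29 at resolution 2. The myeloid-like share changed direction there, with 5.12% at day 90 and 4.48% at day 7. At equal class makeup the medians of contractile genes (0.12), YAP and TAZ targets (-0.033), Wnt modulators (-0.043), TGF-beta and activin genes (-0.095), tissue macrophage genes (0.80) and mast cell genes (0.018) and the log2 ratio of FCER1A (0.018) changed sign, as did contractile (0.11) and tissue macrophage genes (0.28) with per-cell means and tissue macrophage (0.48) and protease genes (-0.39) at 50 CPM. These list medians take the members that reach the expression minimum under each setting. The equal makeup medians in the Results keep the members of the main comparison. With those members, Wnt modulators stood at -0.17 and tissue macrophage genes at 0.79. Equal makeup removes the difference in shares of the 9 compared classes by construction, but not that of pooled classes such as keratinocyte-like cells. For the other settings the cause was not tested. The day 90 share of cells with COL1A1 was 23.6 points higher after thinning and 25.7 unthinned, that of CXCL8 lower by -11.0 and -13.2 points, and that of ACTA2 1.89 and 6.44 points higher. No paired analysis was possible because each group is 1 library, and for the same reason no replicate could be left out.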
